A study of Mus musculus with 15 samples.

Results

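S100b, Sox10, Npy and Mbp, 4 of the 57010 genes in the deposited count table, were followed in every library of an olfactory epithelium study. They were taken by name as transcripts of olfactory ensheathing glia and Schwann cells, and all 4 passed the count filter that left 19229 genes for testing. The mice were wild-type C57BL/6J males 8 weeks of age, kept for 4 h without odour and then exposed for 90 min. Ribosomes carrying phosphorylated S6, a ribosomal protein that is phosphorylated in active neurons, were then immunoprecipitated from the epithelium and their RNA was sequenced, so that the levels belong to the precipitate; unprecipitated RNA was not analysed here. The design sets 2 odorants mixed on a surface against the same odorants mixed only in the air.

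There were 5 groups of 3 libraries, each labelled a biological replicate. The A+D mice received acetophenone and decanal on 1 filter paper, and the A&D mice received the same odorants on separate papers about 1 mm apart. Octanal and cis-3-hexenol were given on 1 paper to the O+C mice and on separate papers to the O&C mice. Each odorant was given as 10 µL, and the Control mice had empty papers. All mice shared the strain, sex, age, handling and the single batch label. Library totals ran from 22704193 to 25287077 counts. Transcripts of 12 mature olfactory neuron genes summed to between 9130 and 21300 CPM (counts scaled to a common library size by edgeR) in every library, which is the tissue check. The library A+D 2 had the lowest mean correlation with the others, 0.968, against 0.979 to 0.985 elsewhere. O&C 1 had the highest sum of Gad1 and Slc17a7, 2 genes of forebrain neurons, at 37.4 CPM. By the whole list of olfactory bulb neurons and astrocytes A+D 2 was highest, at 149 CPM against 143 CPM in O&C 1. That list summed to 141 CPM in O+C 3 and 139 CPM in Control 1, where Gad1 and Slc17a7 summed to 0.817 and 0.647 CPM. The list sum therefore does not follow these 2 genes. Fits without A+D 2 or O&C 1 are given where they move a value.

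Olfactory ensheathing cells are the glia that wrap the bundles of olfactory axons on their way from the epithelium to the bulb, and they form no myelin. Schwann cells myelinate or support other peripheral axons, such as those of the trigeminal nerve in the nose. Both descend from the neural crest. S100b encodes a calcium-binding protein of glia, and Sox10 encodes the transcription factor that sets and keeps neural crest glial identity and is also made in glands of the nose. Npy encodes neuropeptide Y, which ensheathing cells and some microvillar cells of the epithelium make, and which is also made by interneurons of the olfactory bulb. Mbp encodes myelin basic protein of Schwann cells and oligodendrocytes, and other transcripts of the same gene are made in neurons and immune cells. In bulk libraries fewer cells of a type and less RNA per cell cannot be told apart.

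The S100b level in the precipitate was lower after octanal and cis-3-hexenol than in Control. S100b stood at 8.22, 8.75 and 11.3 CPM in O+C libraries and at 11.3, 9.83 and 9.43 CPM in O&C libraries, against 13.9, 17.4 and 19.1 CPM in Control libraries. Every library of these odour groups was below every Control library. The share of all genes that separate from Control in this way was not counted, here or for the genes below. The log2 fold change was -0.83 ± 0.23 (SE) in O+C libraries (adjusted p = 0.0331, edgeR quasi-likelihood test with Benjamini-Hochberg adjustment over 19229 genes) and -0.72 ± 0.23 in O&C (adjusted p = 0.0421), and the levels were 0.562 and 0.607 times those of Control. S100b was the only member called in these comparisons, 1 of 4. Over all genes tested, 2.35% were called lower in O+C against Control and 5.41% in O&C against Control, so that 1 in 4 members is a small count on which nothing further rests.

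The acetophenone and decanal groups were spread over most of the range of S100b. The values were 12.4, 18.9 and 9.71 CPM in A+D libraries and 13.8, 9.6 and 16.1 CPM in A&D libraries. The library A+D 2 was just below the highest Control library, while A+D 3 and A&D 2 stood among the octanal libraries. The fold changes against Control were -0.30 ± 0.23 in A+D (95% interval -0.78 to 0.18, adjusted p = 0.551) and -0.35 ± 0.23 in A&D (95% interval -0.83 to 0.13, adjusted p = 0.591) on the log2 scale. Without A+D 2 the A+D change was -0.62 (adjusted p = 0.305) and without A+D 3 it was -0.11, while the A&D change was -0.17 without A&D 2 and -0.53 without A&D 3. Neither passed the threshold in any of these fits, and the lower bounds lie near the changes seen after octanal. The direct comparison of the octanal with the acetophenone libraries gave -0.45 ± 0.16 (adjusted p = 0.0676), so a difference between the odorant pairs was not established; it was called without A+D 3 (0.0274) or A&D 2 (0.0326) and was -0.28 without A+D 2 (0.202). For all odour libraries against Control the change was -0.55 ± 0.17 (adjusted p = 0.057), called without A+D 2 (0.00627) or A&D 3 (0.0394).

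From low to high, mean S100b was 9.43 ± 1.66 CPM for O+C mice, 10.2 ± 0.992 for O&C mice, 13.2 ± 3.31 for A&D mice, 13.7 ± 4.71 for A+D mice and 16.8 ± 2.66 in Control (SD, n = 3 each). The libraries of each pair of neighbours in this order overlapped. The call in O+C was kept in 11 of 15 fits that left out 1 library and was lost without Control 2 (adjusted p = 0.0964), Control 3 (0.125), O+C 1 (0.158) or O+C 2 (0.0936). The call in O&C was kept in 8 of 15 and was lost without Control 2, Control 3, A&D 1, O+C 2 or any O&C library, with adjusted p up to 0.16; without O&C 1 it was 0.0715.

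**Figure D1:**
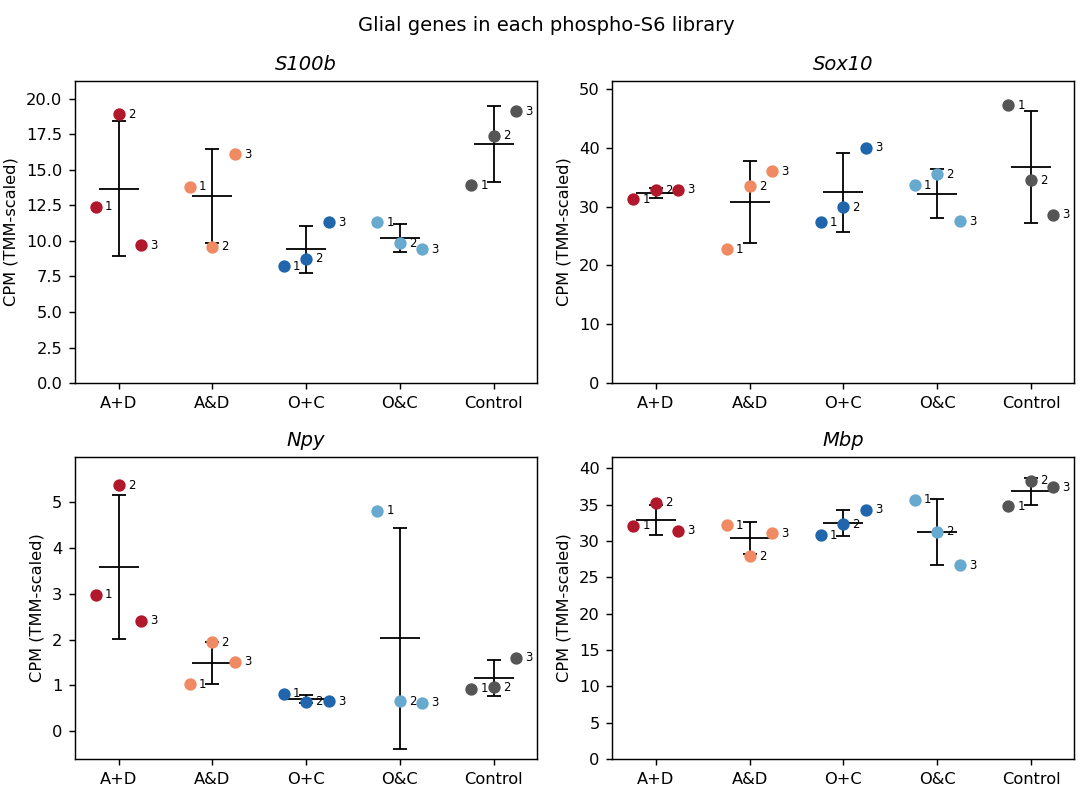
CPM of S100b, Sox10, Npy and Mbp (y axis, after TMM scaling) in each of 15 libraries by group; points are libraries numbered by replicate, and bars are the mean and SD of 3. S100b lay at 8.22 to 11.3 CPM in all 6 octanal libraries, below the 13.9 to 19.1 CPM of Control, and Npy was above 2.4 CPM in the 3 A+D libraries and O&C 1.

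Promoter sequences are shown for S100b and for Apod, a gene of the ensheathing list that was also called lower in O+C. Gpr37l1, of the neural crest list, was called lower there too (-1.21, adjusted p = 0.0159 by edgeR), and its promoter is not shown. The 250 bases before each annotated start were taken from RefSeq (GRCm38.p6) and are written along the transcript, with matches to the SOX core ACAAAG or ACAATG, searched on both strands, in capitals. The S100b window is chr10:76253586-76253835 on the plus strand and the Apod window is chr16:31314809-31315058 on the minus strand.
S100b: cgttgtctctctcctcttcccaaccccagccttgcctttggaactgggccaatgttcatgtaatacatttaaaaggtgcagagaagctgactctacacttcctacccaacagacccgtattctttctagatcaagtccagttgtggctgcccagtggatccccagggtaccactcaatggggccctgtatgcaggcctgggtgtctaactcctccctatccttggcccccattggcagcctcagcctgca
Apod: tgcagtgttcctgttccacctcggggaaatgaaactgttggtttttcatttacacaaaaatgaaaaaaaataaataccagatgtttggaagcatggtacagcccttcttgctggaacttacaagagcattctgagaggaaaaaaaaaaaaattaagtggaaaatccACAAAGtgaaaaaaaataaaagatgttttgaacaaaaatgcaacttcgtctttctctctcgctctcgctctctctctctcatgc
The Apod window held 1 match and the S100b window none. Of all 27025 genes with a window of this length, 28.2% held a match in at least 1 of their windows, as did 5 of the 26 genes found among 39 glial and member genes (19.2%). These counts describe letters only.

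Sox10, the transcription factor, was not called in any comparison. A+D libraries had 31.3, 32.8 and 32.9 CPM of Sox10 and A&D libraries 22.8, 33.5 and 36 CPM. O+C libraries had 27.4, 29.9 and 40 CPM of Sox10 and O&C libraries 33.6, 35.5 and 27.5 CPM, against 47.2, 34.5 and 28.6 CPM in Control. Control spanned nearly the whole range, with Control 1 the highest library of all, and every odour group overlapped it. The fold changes against Control were -0.19 ± 0.19, -0.26 ± 0.19, -0.18 ± 0.19 and -0.19 ± 0.19 (log2, SE) in turn for A+D, for A&D, for O+C and lastly for O&C, with adjusted p of 0.676, 0.657, 0.618 and 0.542. The 95% intervals together ran from -0.66 to 0.22, so that differences within these bounds cannot be told from no change with 3 libraries a group. Mean Sox10 was 32.3 ± 0.868 CPM for A+D mice, 30.8 ± 6.98 for A&D mice, 32.4 ± 6.67 for O+C mice and 32.2 ± 4.17 for O&C mice, against 36.8 ± 9.46 in Control (SD, n = 3 each). The A+D libraries were the closest together, and none of these means differed from its neighbours beyond the spread. The sign of the change against Control rested on Control 1 in 3 of the 4 groups. Without that library the log2 fold change was -0.04 for A&D, 0.03 for A+D, 0.04 for the O+C libraries and 0.03 for O&C.

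Mbp, the myelin gene, was the steadiest of the 4, its highest library being 1.43 times its lowest, against a ratio of 2.07 for Sox10, 2.32 for S100b and 8.6 for Npy. Mbp stood at 32.1, 35.3 and 31.4 CPM in A+D libraries and at 32.2, 27.9 and 31.1 CPM in A&D libraries. Mbp was at 30.8, 32.3 and 34.3 CPM in O+C libraries and at 35.7, 31.3 and 26.7 CPM in O&C libraries, against 34.8, 38.3 and 37.4 CPM in Control. All A&D and O+C libraries were below all Control libraries, while A+D 2 and O&C 1 brought their groups into overlap with Control. With 3 libraries a group and no count of such separations over all genes, nothing further rests on this. Mean Mbp was 32.9 ± 2.04 CPM for A+D mice, 30.4 ± 2.22 for A&D mice, 32.5 ± 1.77 for O+C mice and 31.2 ± 4.49 for O&C mice, against 36.8 ± 1.86 CPM in Control (SD, n = 3 each), and the odour groups overlapped one another. The log2 fold changes against Control were -0.16 ± 0.12, -0.28 ± 0.12, -0.18 ± 0.12 and -0.24 ± 0.12 (SE), in turn for A+D, for A&D, for O+C and lastly for O&C, with adjusted p of 0.532, 0.344, 0.374 and 0.179 by edgeR. None passed the threshold.

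In A+D against Control, 0.322% of all genes were called by edgeR, and 0 of the 4 members, with 1 of them, Npy, at an unadjusted p below 0.05, as were 13.7% of all genes. In A&D against Control 1.02% of all genes were called and again 0 members, with Mbp alone below 0.05 unadjusted, as were 11.9% of all genes. DESeq2 also called 0 members in each.

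**Figure D2:**
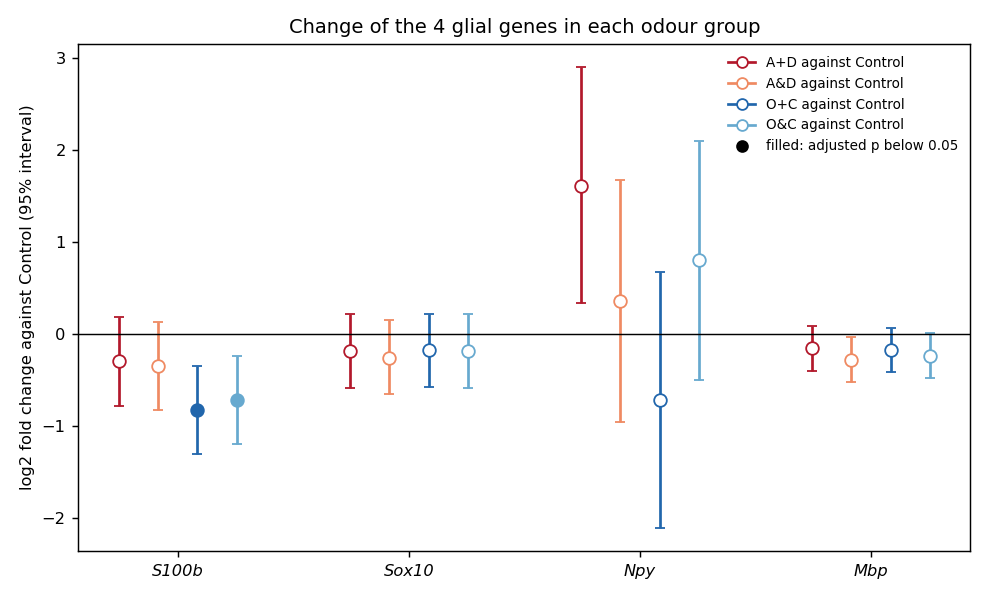
Log2 fold change against Control (y axis) of the 4 glial genes in each odour group from edgeR; lines are 95% intervals and filled points have an adjusted p below 0.05. The filled points are S100b at -0.83 for O+C and at -0.72 for O&C, and the intervals of Npy are the widest.

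Npy, the peptide gene, varied most over the 15 libraries. Npy was at 2.98, 5.36 and 2.41 CPM in A+D libraries and at 1.03, 1.94 and 1.52 CPM in A&D libraries. Npy was at 0.818, 0.643 and 0.661 CPM in O+C libraries and at 4.81, 0.656 and 0.623 CPM in O&C libraries, against 0.929, 0.957 and 1.61 CPM in Control. All A+D libraries were above all Control libraries, and O&C 1 was apart from the other O&C libraries, which stood below Control. These are low levels, with 121 counts in A+D 2 and 111 in O&C 1, against 14 to 71 counts in the others. The log2 fold change in A+D against Control was 1.61 ± 0.61 (SE; 95% interval 0.33 to 2.90, unadjusted p = 0.0171, adjusted p = 0.292 by edgeR), and it was 1.19 without A+D 2 (adjusted p = 0.649). That change was therefore not called, though an edgeR fit without the low-count filter called it (adjusted p = 0.0013). All genes called in A+D ran up to 885 over the alternatives, against 62 in the main fit.

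The other Npy comparisons with Control were not called either. The log2 fold change was 0.36 ± 0.62 in A&D (adjusted p = 0.88), -0.72 ± 0.66 in O+C (adjusted p = 0.555) and 0.80 ± 0.61 in O&C (adjusted p = 0.413) by edgeR. The A&D change ran from 0.13 without A&D 2 to 0.66 without Control 3, and that in O+C from -0.86 to -0.42 over fits without 1 library. The sign in O&C was set by 1 library, the change being -0.84 without O&C 1 (adjusted p = 0.243). Mean Npy of the odour groups ran from 0.707 ± 0.0964 CPM in O+C through 1.49 ± 0.456 in A&D and 2.03 ± 2.41 in O&C to 3.58 ± 1.57 in A+D, and Control, at 1.17 ± 0.386 CPM, lay between O+C and A&D (SD, n = 3 each). Of the neighbours in this order, only O+C and Control had libraries that did not overlap. The octanal against the acetophenone libraries gave -0.95 ± 0.44 (adjusted p = 0.152). Without O&C 1 this became -1.75 (adjusted p = 0.000919), and a fit without the low-count filter also called it with all libraries kept (-0.94, adjusted p = 0.00534).

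The way the odorants were delivered gave no called difference in any of the 4 genes with the low-count filter in place. Without that filter Npy was called in O+C against O&C (-1.52, adjusted p = 0.0177) and in the interaction (2.76, adjusted p = 4.99e-05). The estimates were close to those with the filter. All genes called reached 204 over the alternatives in each of these comparisons, against 0 and 2 in the main fit. These calls thus depend on the setting. In A+D against A&D, the log2 differences were 0.05 ± 0.23 for S100b, 0.07 ± 0.19 for Sox10, 1.26 ± 0.59 for Npy and 0.12 ± 0.12 for Mbp, with adjusted p between 0.994 and 0.997 by edgeR. Without A+D 2 these were 0.84 for Npy and -0.27 for S100b. In that comparison 0.12% of all genes were called. In O+C against O&C the differences were -0.11 ± 0.23 for S100b, 0.01 ± 0.19 for Sox10, -1.52 ± 0.64 for Npy and 0.06 ± 0.12 for Mbp, all with an adjusted p of 1. Without O&C 1 the Npy difference was 0.13. Of all genes, 0% were called there by edgeR, with 766 at an unadjusted p below 0.05 and 4 called by DESeq2. The interaction, the A+D minus A&D difference less the O+C minus O&C difference, was 2.77 ± 0.87 for Npy (unadjusted p = 0.00604, adjusted p = 1), in a comparison where 0.0104% of genes were called. Without O&C 1 it was 1.12. The comparison of the odorant pairs called 15.8% of genes and that of all odour libraries with Control 8.32%, and in each edgeR called 0 members, with S100b called by DESeq2 in both. At an unadjusted p below 0.05 there were 2 members in each, beside 31.2% of all genes in the comparison of the pairs and 23.8% in that of all odour libraries.

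Transcripts of forebrain neurons stood beside the Npy levels. Gad1, which encodes the enzyme that makes GABA in interneurons, and Slc17a7, which encodes a vesicular glutamate transporter of projection neurons such as mitral cells, summed to 5.5, 15 and 3.67 CPM in A+D libraries and to 0.299, 3.1 and 0.598 CPM in A&D libraries. The same sum was 0.603, 0.12 and 0.817 CPM in O+C libraries and 37.4, 0.246 and 0.312 CPM in O&C libraries, against 0.647, 0.199 and 0.413 CPM in Control. The libraries with the highest sums, O&C 1 and A+D 2 followed by A+D 1 and A+D 3, were the 4 with the highest Npy, and A&D 2 came next in each. The correlation of Npy with this sum was r = 0.927 over 15 libraries (rho 0.761) on log2 values, and 0.848 over the 13 libraries without A+D 2 and O&C 1. The points share library and depth. Gad1 is among the 5 genes most like Npy in these data, and Slc17a7 was chosen after its values were seen. The choice of genes thus favours a high r, which is given as a description only. As counts, Gad1 had 93, 219 and 50 in A+D and 512 in O&C 1, against 2, 0 and 2 in Control. Slc32a1, the vesicular GABA transporter, had 8 counts in all, 5 of them in O&C 1. The list of olfactory bulb neurons and astrocytes, of which 6 genes were tested, summed to 116 to 149 CPM for A+D mice, 106 to 113 for A&D mice, 99.7 to 141 for O+C mice and 92.7 to 143 for O&C mice, against 117 to 139 CPM in Control. Against Control, edgeR gave 3 of these 6 genes an unadjusted p below 0.05 for A+D mice, beside 13.7% of all genes. They were Gad1 (log2 6.46), Gad2 (0.75) and Eomes (0.46), all higher. For O&C mice 4 genes were below 0.05, beside 29.6%. Gad1 (6.97), Slc17a7 (3.81) and Eomes were higher there, and Aqp4 (-0.43) was lower. O+C mice had 1 such gene, beside 23.2%, while A&D mice had 0, beside 11.9%. Only Eomes, which progenitors also use, was called against Control, in O&C (0.77, adjusted p = 0.0101 by edgeR). It was also called there without A+D 2 and O&C 1 (0.64, adjusted p = 0.0277 by edgeR). The part of these transcripts in the Npy values was not tested.

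**Figure D3:**
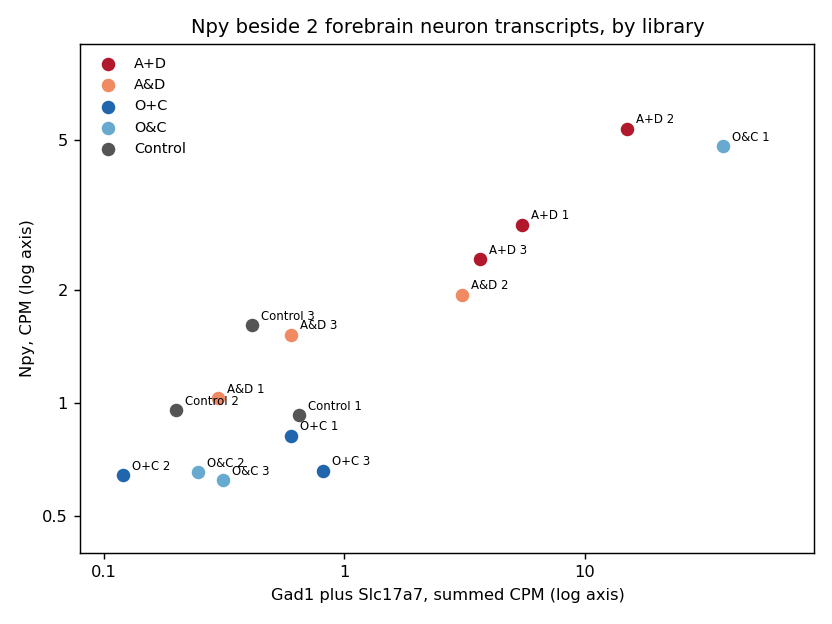
Npy (y axis, CPM, log scale) against the summed CPM of Gad1 and Slc17a7 (x axis, log scale), 1 point per library. A+D 2 and O&C 1 are highest on both axes, with 5.36 and 4.81 CPM of Npy beside sums of 15 and 37.4 CPM. The genes of the sum were chosen with these data known.

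The 5 genes whose pattern over the 15 libraries was most like that of Npy were Slc38a3 (r = 0.927), a glutamine transporter gene, AW047730 (0.923), Gad1 (0.918), Cck (0.916), which encodes cholecystokinin, and Doc2g (0.911). Cck was at 6.55 CPM in A+D 2 and 6.16 CPM in O&C 1, and at 1.64 CPM or less elsewhere. Doc2g was at 48.4 CPM in A+D 2 and 93.7 CPM in O&C 1, but its counts were whole in 0 of 15 libraries and are therefore uncertain. For S100b the closest were 2610203C22Rik (0.917), Fermt2 (0.905), Reep5 (0.901), S100a10 (0.899) and Prelid2 (0.881). For Sox10 they were Ipo4 (0.886), Iqgap2 (0.866), Gata6 (0.865), Oplah (0.842, with counts whole in 0 libraries) and Ttc38 (0.837). For Mbp they were Arhgef15 (0.873), Irs3 (0.84), Lamb1 (0.838), Asap3 (0.833) and Ppp1r18 (0.821). These are descriptions without a test.

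Among the 6 pairs of members, S100b and Mbp varied together. Over 15 libraries r was 0.676 (permutation p = 0.00555, adjusted over 6 pairs 0.0333) and Spearman's rho 0.677 (permutation p = 0.00694, adjusted 0.0416). Leaving out Control 3 and A+D 2, the libraries farthest from the median of S100b, r was 0.576 (permutation p = 0.0385), and it was 0.701 about the group means. The other 5 pairs had r between 0.0213 and 0.348 with adjusted permutation p of 0.545 or more, and adjusted p of 0.235 or more for Spearman's rho. About the group means r was 0.602 for Npy and Mbp and at most 0.369 for the remaining 4 pairs, and without A+D 2 and O&C 1 the r of Npy and Mbp was -0.0149.

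Other glial genes came from lists chosen with earlier results of these data known. The ensheathing list had 10 of 12 genes tested. Against Control, edgeR called 0 of these in either acetophenone group, 1 lower in O+C, beside 2.35% of all genes called lower there, and 1 higher in O&C, beside 9.33% of all genes called higher there. At an unadjusted p below 0.05 there were 1 in A+D, 3 with A&D, 4 with O+C and 2 with O&C, of 10 tested, beside 13.7%, 11.9%, 23.2% and 29.6% of all genes. DESeq2 called 0 in either acetophenone group, 2 lower in O+C libraries and 0 in O&C. The shares of all genes above are those of edgeR. Over the alternatives, DESeq2 among them, 542 to 2618 of all genes were called in O+C in either direction. The list medians were 0.21, -0.23, -0.43 and -0.15 on the log2 scale against Control, in the order A+D, then A&D, then O+C, then O&C, beside medians of all genes between -0.04 and 0.02.

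Apod, which encodes a lipid-binding apolipoprotein of glia, was the called ensheathing gene in O+C. Apod stood at 50.8, 70.6 and 41.7 CPM in O+C against 122, 98.6 and 140 CPM in Control, and every O+C library was below every Control library. The change was -1.14 ± 0.26 (log2, adjusted p = 0.0172 by edgeR) and was not called once Control 1 or Control 3, or else O+C 1 or O+C 3, was left out, or with a gland covariate (adjusted p up to 0.0843). Prss56, a protease gene, was called higher in O&C on few counts, 14, 5 and 6 against 1, 1 and 1 in Control, a ratio of 8.26 (counting interval 2.52 to 42.7), and the call was lost without O&C 1 or any Control library, in a fit of the compared groups alone and by DESeq2. Its ratio in A+D, 39 counts against 3, was 13.1 (counting interval 4.18 to 66.5; adjusted p = 0.0585). Fabp7, the fatty-acid binding protein gene of ensheathing cells, was at 22.3, 29.9 and 19.0 CPM in O+C, against 46.1, 51.2 and 56.9 CPM in Control, yet its change of -1.11 ± 0.37 was not called (adjusted p = 0.0846). Fabp7 reached 79.7 CPM in A+D 2, its highest library.

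The ensheathing list summed to 137 to 286 CPM for A+D mice, 130 to 176 for A&D mice, 96.4 to 134 for O+C mice and 115 to 195 for O&C mice, against 187 to 252 CPM in Control. A+D 2 held the highest sum, and O&C 1 the highest of the O&C libraries. Without these libraries, 2 ensheathing genes were called lower with O+C and 2 with O&C, and the count called higher in O&C was 0. The share of all genes called in that fit is not given here. Over the alternatives 542 to 2618 of all genes were called in O+C and 1274 to 4664 in O&C, against 1555 and 2834 in the main fit. The oligodendrocyte protein gene Omg, which ensheathing cells also make, was too low to test, with 51 counts in all, 30 of them in A+D 2 and 7 in O&C 1, as was Ngfr, the low-affinity nerve growth factor receptor gene, with 19 counts in all. S100b followed the ensheathing sum with r = 0.819 over 15 libraries, as a description; the sum does not hold S100b.

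The Schwann cell list had 12 of 14 genes tested. By edgeR 1 gene was called lower in O&C, beside 5.41% of all genes called lower there, and 0 in the other 3 comparisons with Control. At an unadjusted p below 0.05 there were 3 of 12 in each of the 4 comparisons, beside 13.7% of all genes with A+D, 11.9% with A&D, 23.2% with O+C and 29.6% with O&C. In A+D these were Egr2 (-0.98) and Mal (-0.70), both lower, and Ncmap (0.53), higher. DESeq2 called 2 lower with A+D, 0 with A&D, 1 with O+C and 1 with O&C. The shares of all genes above are those of edgeR and do not apply to the DESeq2 counts. Over the alternatives, DESeq2 among them, 43 to 885 of all genes were called in A+D, against 62 in the main fit. The list medians were -0.20 for A+D, -0.26 for A&D, -0.43 for O+C and -0.35 for O&C. The summed level was 110 to 135 CPM with A+D, 128 to 140 with A&D, 121 to 129 with O+C and 119 to 140 with O&C, against 141 to 150 CPM in Control. Every odour library was below every Control library by that sum, at the closest 140 against 141 CPM. The sum of the sustentacular cell list was likewise 4600 CPM or less in every odour library and 4840 CPM or more in Control. The called gene was Mal, which encodes a protein of myelin sorting, at 7.11, 7.01 and 5.7 CPM in O&C against 11.3, 11 and 9.05 CPM in Control (-0.66 ± 0.20, adjusted p = 0.03). That call was lost without Control 1, Control 2 or any O&C library.

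Of the neural crest list, the genes that share or build on the Sox10 programme, 8 of 9 were tested. The sodium channel gene Scn7a had 47 counts in all and was not tested. In O+C 1 was called lower, by edgeR and by DESeq2, beside 2.35% of all genes called lower there by edgeR, and 0 were called in the other 3 odour groups. At an unadjusted p below 0.05 there were 0 with A+D, 1 with A&D, 2 with O+C and 1 with O&C, of 8 tested, beside 13.7%, 11.9%, 23.2% and 29.6% of all genes. The called gene was Gpr37l1, a glial receptor gene, at 1.25, 1.77 and 1.05 CPM in O+C against 3.27, 2.43 and 3.72 CPM in Control (-1.21 ± 0.29, adjusted p = 0.0159). It was lost without the same 4 libraries as Apod and with the gland covariate (adjusted p = 0.0989). In O&C the same gene was at 4.12, 3.24 and 2.49 CPM, within the range of Control at its lower end and above it in O&C 1.

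**Figure D4:**
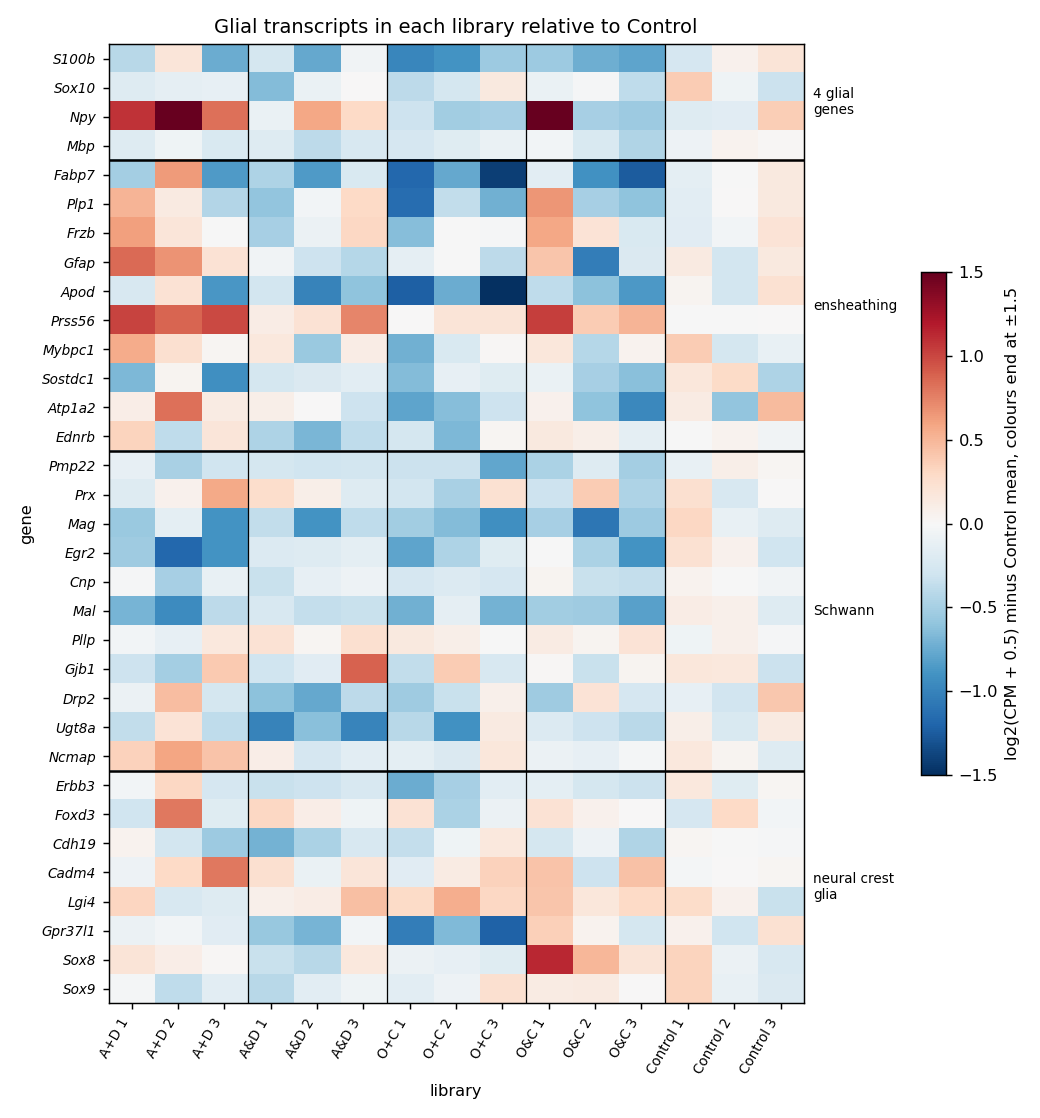
Log2(CPM + 0.5) of tested glial genes (rows, by list) in each library (columns, by group) minus the mean of the Control libraries; colours end at 1.5 in each direction. Npy is highest in A+D 2 and O&C 1, and S100b, Fabp7 and Apod are below Control in all O+C libraries.

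In the neuropeptide Y system, the receptor genes Npy2r, Npy4r and Npy5r had 10, 4 and 5 counts in all and were not tested, and Npy1r was at 0.612 to 2.41 CPM and not called. The peptide-processing genes, which serve many peptides, carried the calls, 2 of 6 tested higher in O+C libraries and 3 in O&C libraries, beside 5.74% and 9.33% of all genes called higher. Cpe, the carboxypeptidase E gene, was at 715, 605 and 599 CPM in O+C libraries and 764, 668 and 867 CPM in O&C libraries, against 378, 417 and 368 CPM in Control. Its changes of 0.72 and 0.98 (adjusted p = 0.00644 and 0.000317) were kept in 15 of 15 fits that left out 1 library. Pcsk1, a prohormone convertase gene, rose by 1.1 in O+C (adjusted p = 0.0403) and by 1.24 in O&C (adjusted p = 0.0142); these calls were lost without Control 1 or Control 3, and the first also without O+C 1, O+C 2 or O&C 2, the second also without O&C 3. Npy itself was not called in either comparison.

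Other cell types moved in the same comparisons as S100b. The counts below stand beside the shares of all genes called by edgeR. In O+C 5.74% of all genes were called higher and 2.35% lower, and in O&C 9.33% higher and 5.41% lower. All 12 mature neuron genes were called higher with either octanal mixture, and their summed level was 15300 to 18800 CPM for O+C mice and 15700 to 21300 CPM for O&C mice, against 9130 to 10100 CPM in Control. Of 11 immune genes, 6 were called lower with O+C and 8 with O&C, the summed level being 716 to 749 and 652 to 849 CPM against 1130 to 1590 CPM in Control. S100b correlated with the mature neuron sum at r = -0.781 and with the immune sum at r = 0.615 over 15 libraries, as descriptions of libraries that share their scaling. Sustentacular cell genes were called lower as well, 2 of 8 with O+C and 4 of 8 with O&C. Red blood cell genes were called lower with O&C, 5 of 5, and 0 of 5 with O+C. The horizontal basal cell list gave 1 of 6 genes called lower in each of these comparisons, and the endothelial and stromal list 1 of 9. The part of these shifts in the S100b calls was not tested. Of the oligodendrocyte list, Mog and Opalin, its defining genes, had 2 and 1 counts in all libraries together, while Olig1 (0.70, adjusted p = 0.00136) and Olig2 (0.41, adjusted p = 0.0329), which progenitors of the epithelium also use, were called higher in O&C, Olig2 only while Control 1, 2 and 3, O&C 1 and O&C 3 were all kept. The list of globose basal cells, which are progenitors, had 0 of 6 genes called in O&C, with all 6 changes below zero and a median of -0.27. The source of the Olig1 and Olig2 transcripts was not tested. Sox10 varied with Sox9, a gland and glial transcription factor gene, at r = 0.746 and with Aqp5, a gland water channel gene, at r = 0.55. The gland product Obp2a was at 1.59, 1.58, 0.434, 2.14 and 0.162 CPM in 5 libraries (A+D 2, then A&D 1, then O&C 1, then O&C 3, then Control 1) and at 111 CPM or more elsewhere, and Sox10 in those 5 libraries spanned 22.8 to 47.2 CPM, the full range. The whole gland list, however, summed to 5040 CPM in Control 1, the highest of the Control libraries. With a gland covariate the Sox10 change in O+C against Control moved from -0.18 to 0.01. The part of the glands in the Sox10 values was not tested.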

How the data were processed

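Phospho-S6 immunoprecipitates of mouse olfactory epithelium were sequenced from 15 libraries (TruSeq Stranded mRNA kit, NovaSeq, per the labels' protocols). The authors deposited expected counts per gene, estimated counts without normalization. STAR 2.7.10b, Salmon 1.10.1, R 4.4.2 and the build GRCm39 are named, without roles, per the submitters' processing notes; annotation and strand setting are not given in the sources used here. Symbols matched 52029 of 57010 identifiers. Member counts were whole, to 0.0015, in at least 14 of 15 libraries; shared reads make genes with no whole counts uncertain.

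Counts were rounded, filtered by filterByExpr (minimum count 10), TMM-scaled and fitted with edgeR 4.0.16 (R 4.3.3), robust quasi-likelihood, 1 mean per group over 15 libraries, two-sided, Benjamini-Hochberg threshold 0.05; 9 comparisons were made. DESeq2 1.42.0 and other settings were alternatives. CPM used TMM sizes; correlations used log2(CPM + 0.5), with 100000 permutations. The common dispersion was 0.0336 (biological coefficient of variation 0.183), and intervals of counts cover counting error only. Libraries shared at most 1.92% equal counts, so each was counted as its own sample. Each library is taken as 1 mouse. No label says that same-numbered mice were paired, and 3 labelled biological replicates per group are the only basis of the p-values.

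Members and lists were chosen with earlier results of these data known. Named besides the members were the 4 genes of each list with the largest called change, genes of the glial lists, and the 5 genes most like each member; other genes named without a call, such as Slc17a7, Slc32a1, Mog, Opalin, Aqp5, Obp2a and the Npy receptors, were chosen after their values were seen. Promoter windows came from RefSeq, GRCm38.p6, and no coordinate of the files was used. 1 gene of the Schwann cell list is not reported by itself here.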

Additional observations from a re-analysis of the deposited data

How the results depend on the processing

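Tool choices and a pair of libraries moved Npy and S100b most, and the cause of each change was not tested. Without the low-count filter, calls appeared for Npy in A+D against Control (1.60, adjusted p = 0.0013), O+C against O&C (-1.52, 0.0177), the interaction (2.76, 4.99e-05) and the octanal against the acetophenone pair (-0.94, 0.00534), and for S100b in the pair comparison (-0.44, 0.00955) and for any odour (-0.56, 0.00228). DESeq2 called S100b in the pair comparison (-0.44, 0.046) and for any odour (-0.55, 0.0275), and a gland covariate called the first (-0.51, 0.0383) and turned Sox10 in O+C (0.01) and in the interaction (-0.04). With A+D 2 and O&C 1 left out, Npy became -0.84 in O&C, 0.13 in O+C against O&C and -1.55 between the pairs (0.000972), S100b -0.27 in A+D against A&D, -0.22 in the interaction and -0.64 for any odour (0.00604), Mbp -0.10 in the interaction, and the correlations Sox10-Npy -0.0298 and Npy-Mbp -0.0149. 

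The replicate block gave S100b -0.83 in O+C (adjusted p = 0.0598) and -0.71 in O&C (0.0717), both uncalled, and ended the call of Pcsk1 in O+C (0.0676). No label pairs the samples by number. Over all tested genes, deviations of same-numbered libraries from their group means correlated from -0.434 to 0.167 (median -0.0606), others from -0.263 to 0.439 (median 0.031). These correlations cannot exclude a pairing that acts on a few genes.

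Leaving out single libraries gave these ranges. S100b: -0.62 to -0.11 in A+D, -0.53 to -0.17 in A&D, -0.97 to -0.73 in O+C, -0.84 to -0.62 in O&C, -0.27 to 0.24 in A+D against A&D, -0.14 to 0.35 in the interaction, -0.55 to -0.28 between the pairs and -0.67 to -0.45 for any odour. Sox10: -0.34 to 0.03 in A+D, -0.35 to 0.04 in O+C, -0.34 to 0.03 in O&C, -0.11 to 0.19 in A+D against A&D, -0.17 to 0.12 in O+C against O&C, -0.12 to 0.22 in the interaction, -0.05 to 0.12 between the pairs and -0.36 to 0.02 for any odour. Npy: 1.19 to 1.91 in A+D, 0.13 to 0.66 in A&D, -0.86 to -0.42 in O+C, 0.84 to 1.49 in A+D against A&D, 1.12 to 3.19 in the interaction, 0.10 to 0.81 for any odour, -0.84 to 1.23 in O&C, -1.94 to 0.13 in O+C against O&C and -1.75 to -0.71 between the pairs. Mbp: -0.05 to 0.15 in O+C against O&C, -0.05 to 0.15 in the interaction and -0.02 to 0.08 between the pairs.

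Counts of all genes called were 62 in A+D (43 to 885 over the alternatives), 197 in A&D (112 to 610), 1555 in O+C (542 to 2618), 2834 in O&C (1274 to 4664), 23 in A+D against A&D (10 to 208), 0 in O+C against O&C (0 to 204), 2 in the interaction (1 to 204), 3032 between the pairs (1720 to 4526) and 1600 for any odour (423 to 2681). Npy, at 14 to 121 counts, had the fewest counts of the members and the widest intervals. Its libraries also differed widely within a group, with 111, 16 and 14 counts in O&C. The part of depth in these widths was not tested.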
